A study of Mus musculus with 6 samples.

Results

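The D cyclins, their partner kinases and the inhibitors of these kinases were followed through 6 expression arrays of mouse primary chondrocytes. They comprise 10 genes, namely Ccnd1, Ccnd2, Ccnd3, Cdk4, Cdk6, Cdkn1a, Cdkn1b, Cdkn1c, Cdkn2b and Cdkn2c, of 18193 genes with a probe set on the array. A probe set is a group of short probes that reports 1 transcript or part of it, and every probe set annotated to 1 of these genes was taken, which gave 26. Of these, 24 were bright enough to be tested, and 2 dim probe sets of Ccnd3 were not. The cells were chondrocytes freed from newborn rib cartilage by collagenase digestion and then cultured, with no sort described. One group was wild type and the other homozygous for Slc39a13-KO, an allele in which a block of internal exons of the zinc transporter gene was replaced by a Neo-cassette. Each group had 3 arrays. The labels and methods give no strain, sex or number of days in culture for these arrays.

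D cyclins accumulate when a cell receives growth signals, and bind Cdk4 or Cdk6. The complexes phosphorylate the retinoblastoma protein, which releases E2F factors and lets the cell leave G1 and enter S phase. Inhibitors of the INK4 family, here Cdkn2b and Cdkn2c, bind Cdk4 and Cdk6 and keep D cyclins from them. Those of the CIP/KIP family, here Cdkn1a, Cdkn1b and Cdkn1c, bind cyclin and kinase together. In the growth plate, cyclin D1 is known from proliferating chondrocytes, and Cdkn1c from chondrocytes that stop dividing before hypertrophy.

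Values are array signals on a linear scale, and changes are on the scale of log2(signal + 7.96), KO minus wild type, which understates the change of dim probe sets. Slc39a13 itself, on its only tested probe set, gave signals of 901, 1081 and 991 on wild-type arrays and 101, 196 and 166 on KO arrays. Its log2 fold change was -2.67 (SE, the standard error, 0.22, adjusted p = 0.000535 by limma with Benjamini-Hochberg adjustment over 23294 probe sets). The sources used here do not tell whether that probe set covers the deleted exons. One array, KO replicate 1, differed most from the rest, with a mean correlation of 0.922 with them against 0.941 to 0.948 for the other 5, and a median signal of 108 against 80.7 to 88.4. Xist was high on wild-type replicate 3 and KO replicate 2 only (5194 and 6445, against 79.0 to 107 on the other 4), so these animals were of another sex than those of the other arrays. Each group therefore held at least 2 RNA sources, and where the other arrays shared one, p-values measure a spread that is partly technical. Col2a1 and Acan, the defining genes of chondrocytes, were bright on all 6 arrays, at 29850 to 62820 and 4321 to 11170. Markers of mesothelium, the lining of the body cavities, moved with the genotype. Of 11 tested, 10 were lower in KO arrays by limma and 0 higher, beside 3.92% and 3.97% of all genes. At an unadjusted p under 0.05, 11 were lower and 0 higher. The median log2 fold change was -2.61, and their summed signal was 5332 to 8862 on wild-type and 825 to 1432 on KO arrays. Msln and Upk3b, which define mesothelium, were at 425 to 695 and 676 to 1333 on wild-type arrays and at 26.1 to 152 and 58.4 to 127 on KO arrays. Their part in the results that follow was not tested. In bulk samples such as these, fewer cells of a type and less RNA per cell cannot be told apart.

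Of the 24 tested probe sets of the D cyclins, kinases and inhibitors, 6 passed as lower in KO chondrocytes and 1 as higher, and 17 did not pass at an adjusted p of 0.05. The lower ones were all 3 of Ccnd1, both of Cdkn1a and 1 of the 3 of Cdk6, and the higher one was that of Cdkn2c. Over all tested probe sets, 3.37% were lower and 3.44% were higher. With median centring of the arrays, which moved the split over all probe sets from 802 higher and 785 lower to 131 higher and 259 lower, Cdkn2c (0.23, adjusted p = 0.523) and Cdk6 (-0.52, adjusted p = 0.120) no longer passed, although the estimate of Cdk6 was farther from 0 than without centring. The KO arrays lay entirely below the wild-type arrays on 12 of the 24 probe sets and above them on 2, where all probe sets gave 13.7% and 15.1%. The study's methods name a 2-fold criterion, there for values processed by gcRMA. Here it was taken as a difference of at least 1 on the log2 scale of the deposited MAS5 signals with the added constant. This criterion was reached downward by 2 of the 24, both of Ccnd1, and by 1.93% of all probe sets. Cdkn1a 1421679_a_at missed it only on the scale with the added constant (-0.99), since its mean signal was 2.06-fold lower. The median log2 fold change of the 24 was -0.35, beside 0.01 over all tested probe sets. Genes with several probe sets weigh more in these figures, and the 12 came from Ccnd1, Ccnd2, Cdk6 and Cdkn1a only. Taking just the brightest probe set of each gene, the median was -0.15. The groups were then fully separated in 4 genes with lower and 1 gene with higher KO signals. Beside this stand the 13.7% and 15.1% of all probe sets, as the share by gene was not taken. One of the 4 was Ccnd2 1416122_at, where the nearest arrays of the groups were equal at the digits shown (14750). Counted by the brightest probe set, 3 of the 10 genes passed by limma as lower and 1 as higher, beside 3.92% and 3.97% of all 12715 genes. The gene counts without 1 array were 1 lower and 0 higher without wild-type replicate 2, and 2 lower and 0 higher without wild-type replicate 1, wild-type replicate 3 or KO replicate 2. Without wild-type replicate 2, 3 of the 24 probe sets passed, and without wild-type replicate 3 or KO replicate 2, 4 did.

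**Figure D1:**
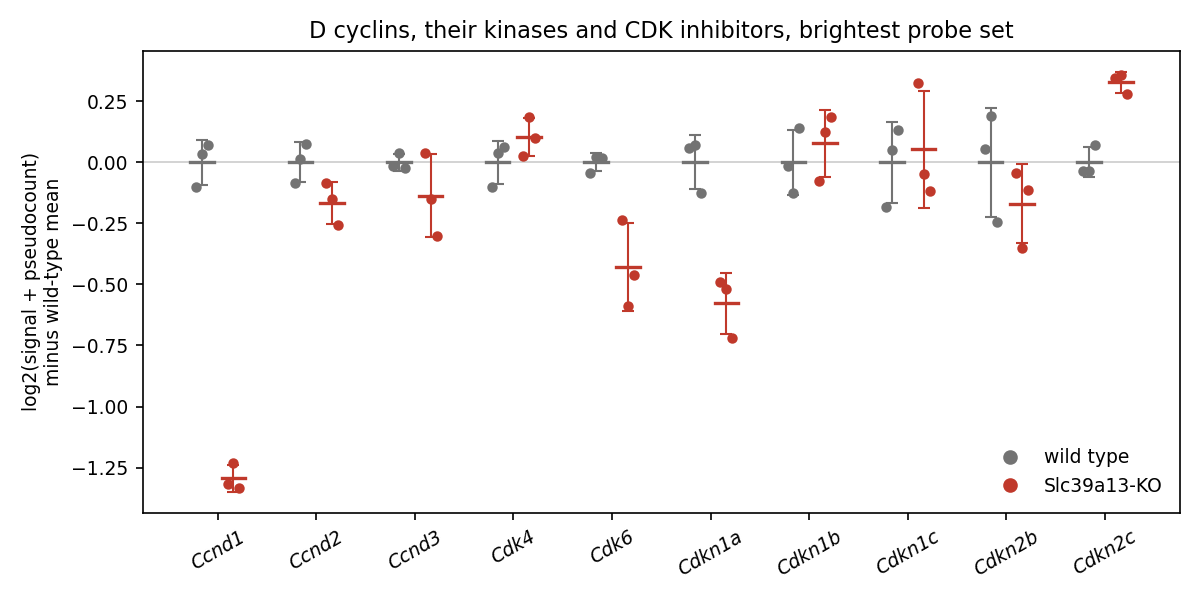
Brightest probe set of each of the 10 genes, as log2(signal + pseudocount) minus the wild-type mean (y axis), by gene (x axis). Points are the 3 arrays of each group (gray wild type, red Slc39a13-KO), with the mean of each group as a short line and its SD over 3 arrays as a bar. The KO arrays of Ccnd1 lie near -1.29, those of Cdkn1a and Cdk6 also lie below all wild-type arrays, those of Cdkn2c lie above them, and those of Ccnd3, Cdk4, Cdkn1b, Cdkn1c and Cdkn2b overlap the wild-type arrays.

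Ccnd1, which encodes cyclin D1, the D cyclin most closely tied to growth factor signaling, was lower on each of its 3 probe sets. On the brightest, 1417420_at, the wild-type signals were 9394, 10320 and 10600 and the KO signals 4045, 4288 and 4000. The lowest wild-type array was thus well above the highest KO array, and the KO arrays differed little from each other. The means were 10100 ± 630 and 4111 ± 155 (SD, n = 3 arrays each), a 2.46-fold lower signal in KO chondrocytes, and the log2 fold change was -1.29 (SE 0.08, 95% interval -1.47 to -1.12, adjusted p = 0.000191 by limma). By p-value this probe set ranked 2 of all 23294.

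The other probe sets of Ccnd1 gave smaller decreases of the same direction. On 1448698_at the wild-type signals were 5131, 5877 and 5913 and the KO signals 3068, 2589 and 2226. On 1417419_at they were 4571, 4643 and 4948 in wild-type and 2565, 2644 and 2501 in KO arrays. Neither probe set had an array of 1 group within the range of the other. The log2 fold changes were -1.11 (SE 0.12, adjusted p = 0.00126) and -0.87 (SE 0.07, adjusted p = 0.000598 by limma). The 3 estimates differ in size, and 95% intervals of -1.47 to -1.12 and -1.04 to -0.71 for 1417420_at and 1417419_at do not overlap. With each array left out in turn, all 3 probe sets still passed, and they passed without wild-type replicate 3 and KO replicate 2 together (adjusted p = 0.0142, 0.0404 and 0.0202). Without limma's trend of variance with brightness, 1448698_at had an adjusted p = 0.0533, and 0.0864 by the unmoderated test that the study's methods name, after adjustment.

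Ccnd2, which encodes cyclin D2, had 7 probe sets, more than any other of the 10 genes, and none passed by limma, while 4 had an unadjusted p under 0.05 (2 by the test of the methods, and 0 after its adjustment). Of all 23294 probe sets, fewer than 5471 had such a p by limma and 4369 by the test of the methods. All 7 of Ccnd2 had a negative log2 fold change, from -0.12 to -0.65. The brightest, 1416122_at, had signals of 14750, 15800 and 16490 on wild-type arrays and 14750, 14100 and 13100 on KO arrays. The KO arrays here reached up to the lowest wild-type value and no further, and the log2 fold change was -0.17 (SE 0.08, adjusted p = 0.266 by limma). The dimmest, 1416123_at, had 1231, 1241 and 1333 on wild-type and 746, 809 and 1115 on KO arrays. Here the groups were apart, KO replicate 3 lay closest to the wild-type arrays, and the log2 fold change was -0.53 (SE 0.14, adjusted p = 0.0556 by limma).

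The remaining probe sets of Ccnd2 were of the same 2 kinds. 1434745_at and 1430127_a_at overlapped between the groups, at -0.15 and -0.12 on the log2 scale (adjusted p = 0.433 and 0.555). 1455956_x_at had 10630, 10980 and 12020 on wild-type and 8922, 7823 and 9612 on KO arrays. 1416124_at had 1669, 2016 and 1760 on wild-type and 808, 1189 and 1586 on KO arrays, and 1448229_s_at had 4230, 4402 and 4673 on wild-type and 4089, 3511 and 2898 on KO arrays. On these 3 the KO arrays lay below all wild-type arrays, at -0.35, -0.65 and -0.35 on the log2 scale (adjusted p = 0.0532, 0.0885 and 0.107 by limma). KO replicate 3 was the highest KO array on 1455956_x_at, 1416124_at and 1416123_at and the lowest on the other 4. Without KO replicate 3, 1416123_at, 1416124_at and 1455956_x_at passed (adjusted p = 0.00533, 0.0124 and 0.0243), and without KO replicate 1, 1448229_s_at did (0.0206). With the mean of the 7 probe sets as the value of the gene, the log2 fold change was -0.33 and passed (adjusted p = 0.0238).

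Ccnd3, which encodes cyclin D3, did not pass. Its 1 tested probe set, 1415907_at, had signals of 2525, 2622 and 2512 on wild-type arrays and 2624, 2301 and 2072 on KO arrays. KO replicate 1 was as high as the highest wild-type array and the other 2 KO arrays were below all 3 of them. The log2 fold change was -0.14 (95% interval -0.35 to 0.08, adjusted p = 0.441 by limma). The 2 probe sets under the filter on dim values, 1444323_at and 1438805_at, had signals of 25.3 to 95.3 and 7.85 to 47.6 and overlapped between the groups.

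**Figure D2:**
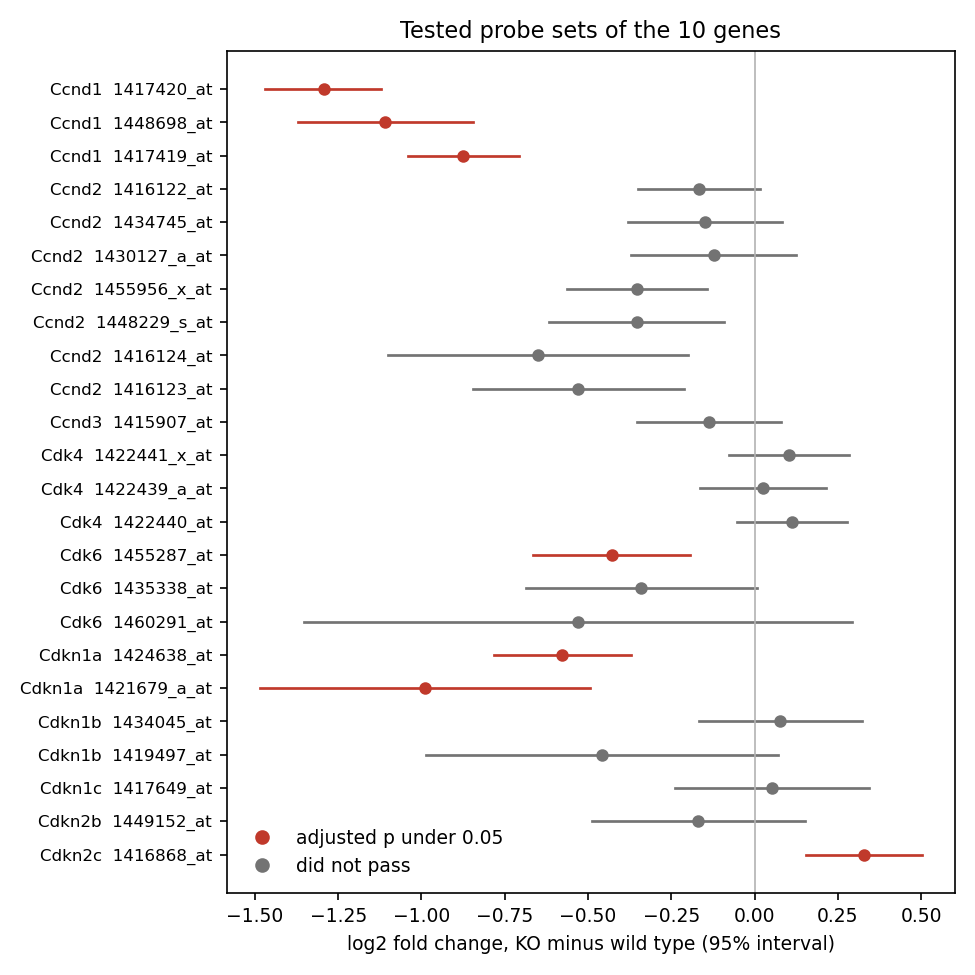
Log2 fold change, KO minus wild type (x axis), of the 24 tested probe sets of the 10 genes (y axis), with the 95% interval from limma, which is not adjusted for the number of probe sets. Red marks an adjusted p under 0.05 and gray the others: the 3 probe sets of Ccnd1 lie between -1.29 and -0.87, the 7 of Ccnd2 lie between -0.65 and -0.12, and only Cdkn2c is red above 0.

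Of the kinases, Cdk4 did not pass on any probe set and Cdk6 was lower on 1 of 3. Cdk4, the more widely expressed of the pair, had signals of 4950, 5452 and 5549 on wild-type arrays and 5413, 6035 and 5684 on KO arrays on its brightest probe set, 1422441_x_at. The groups overlapped, and the log2 fold change was 0.10 (95% interval -0.08 to 0.28, adjusted p = 0.490 by limma). The other probe sets, 1422440_at and 1422439_a_at, had log2 fold changes of 0.11 (95% interval -0.05 to 0.28) and 0.02 (95% interval -0.16 to 0.21). The sign of the last turned with median centring of the arrays (-0.07), without KO replicate 2 (-0.03), and without wild-type replicate 3 and KO replicate 2 together (-0.04).

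Cdk6, the other partner of the D cyclins, had signals of 1346, 1410 and 1406 on wild-type arrays and 1177, 919 and 1005 on KO arrays on 1455287_at. All KO arrays were below all wild-type arrays, with KO replicate 1 the highest of them. The means were 1387 ± 35.5 and 1034 ± 131 (SD, n = 3 arrays each), and the log2 fold change was -0.43 (SE 0.11, adjusted p = 0.0414 by limma). It no longer passed without any 1 of the wild-type arrays (adjusted p = 0.116, 0.162 and 0.139 without replicates 1, 2 and 3), without KO replicate 2 (0.113) or without KO replicate 3 (0.0600). With median centring the estimate was -0.52 and did not pass either (0.120), nor did it by the adjusted test of the methods (0.170). On 1435338_at the signals were 1156, 1190 and 989 on wild-type and 1132, 755 and 780 on KO arrays, where KO replicate 1 lay among the wild-type arrays. The log2 fold change of this probe set was -0.34 (adjusted p = 0.230 by limma), which passed without KO replicate 1 (-0.53, adjusted p = 0.0223). The dim 1460291_at, at 51.8 to 109, had -0.53 (SE 0.37, adjusted p = 0.434).

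Of the CIP/KIP inhibitors, Cdkn1a was lower and Cdkn1b and Cdkn1c did not pass. Cdkn1a encodes p21, which is known as a transcriptional target of p53 and also responds to growth factors and TGF-β. RefSeq places 2 separated starts of this gene in the GRCm38.p6 assembly, on the plus strand, and the 250 bases before each are shown because the only p53 response element found in a promoter of the 10 genes lies in the first. Capitals mark the response element in the first and each GC box in the second.
Cdkn1a, first start, chr17:29090729-29090978: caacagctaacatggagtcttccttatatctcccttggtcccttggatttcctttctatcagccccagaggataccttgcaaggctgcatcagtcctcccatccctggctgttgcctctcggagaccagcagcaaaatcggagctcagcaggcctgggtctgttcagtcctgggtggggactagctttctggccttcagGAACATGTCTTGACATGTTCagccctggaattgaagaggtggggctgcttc
Cdkn1a, second start, chr17:29093519-29093768: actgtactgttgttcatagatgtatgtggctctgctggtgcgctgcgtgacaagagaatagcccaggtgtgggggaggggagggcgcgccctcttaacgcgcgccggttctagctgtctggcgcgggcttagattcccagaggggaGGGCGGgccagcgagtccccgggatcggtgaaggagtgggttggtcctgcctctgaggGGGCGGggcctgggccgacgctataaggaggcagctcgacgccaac

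The search covered both strands. The response element was taken as 2 abutting decamers with exact cores and at most 1 mismatch outside them, and the GC box as GGGCGG. Positions count back from the start, and the element begins at position -51. Over all 32851 promoters of this length in the table, 15 (0.0457%) held a response element and 32.7% a GC box. Among the 10 promoters found for 7 of the 10 genes (all but Ccnd1, Ccnd2 and Cdkn1c), 1 held a response element and 6 a GC box. None of the 10 held TGACTCA, a binding sequence of AP-1 (4.46% of all promoters), or TTTNGCGC, one of E2F (1.13%), while TGACGT, the core of the cAMP response element, stood in 1 promoter of Cdkn2b and 1 of Ccnd3 (6.47% of all promoters). A match is a description of the sequence, and the arrays measured no binding.

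On its brighter probe set, 1424638_at, Cdkn1a had signals of 5022, 5063 and 4418 on wild-type arrays and 3428, 3365 and 2924 on KO arrays. The groups did not overlap, and the spread within each was narrower than the gap between the means. The means were 4834 ± 361 and 3239 ± 275 (SD, n = 3 arrays each), and the log2 fold change was -0.58 (SE 0.09, 95% interval -0.78 to -0.37, adjusted p = 0.00750 by limma). On 1421679_a_at the signals were 1020, 2056 and 1508 on wild-type and 868, 623 and 736 on KO arrays. Wild-type replicate 1 was the lowest of its group and close to the KO arrays, and replicate 2 was about as far above replicate 3 as replicate 1 was below it. The log2 fold change was -0.99 (SE 0.22, adjusted p = 0.0287 by limma). Without wild-type replicate 2, neither probe set passed (adjusted p = 0.0522 for 1424638_at and 0.0990 for 1421679_a_at), and 1421679_a_at also did not without wild-type replicate 3 (0.0932) or KO replicate 2 (0.0943). Neither passed without wild-type replicate 3 and KO replicate 2 together (0.0602 and 0.235), without limma's trend (0.0860 and 0.147) or by the adjusted test of the methods (0.103 and 0.234). Across all settings that fitted the probe sets apart, the estimates were -0.51 to -0.67 and -0.75 to -1.25. The mean of both probe sets gave -0.78.

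Cdkn1b, which encodes p27, had signals of 1014, 939 and 1130 on wild-type arrays and 971, 1117 and 1168 on KO arrays on 1434045_at. The arrays of the groups were interspersed, with a log2 fold change of 0.08 (95% interval -0.17 to 0.32, adjusted p = 0.724 by limma). On the dimmer 1419497_at the wild-type signals were 363, 201 and 301 and the KO signals 187, 247 and 178. The groups overlapped here too, and the log2 fold change was -0.46 (95% interval -0.99 to 0.07, adjusted p = 0.287). The 2 probe sets thus had opposite signs, and that of 1434045_at turned with median centring (-0.02). With the mean of both probe sets the value was -0.19.

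Cdkn1c encodes p57 and is an imprinted gene read from the maternal chromosome. Its signals were 1707, 2012 and 2129 on wild-type arrays and 2432, 1879 and 1786 on KO arrays. KO replicate 1 was the highest of all 6 arrays, and the other 2 KO arrays lay inside the wild-type range. The log2 fold change was 0.05 (95% interval -0.24 to 0.34, adjusted p = 0.848 by limma), with a sign that turned under median centring (-0.04), on leaving out wild-type replicate 1 (-0.04) or KO replicate 1 (-0.08). Of 9 tested genes of the imprinted region around Cdkn1c, none passed by limma on its brightest probe set. At an unadjusted p under 0.05, reached by fewer than 5471 of all 23294 probe sets, 1 gene of the region was higher and 1 lower. This count is not read as a result about the region. The lowest p-values were those of Cd81, a tetraspanin, at -0.34 on the log2 scale (adjusted p = 0.0778) and Igf2, a paternally expressed growth factor, with 0.52 (adjusted p = 0.0843). Cd81 passed without KO replicate 1 (adjusted p = 0.0352) and Igf2 without KO replicate 3 (0.0480). The dimmer probe set of Igf2 did pass, at 0.84 (adjusted p = 0.00692 by limma), and with probe sets averaged by gene 1 gene of the region was higher.

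Of the INK4 inhibitors, Cdkn2c was higher in KO chondrocytes and Cdkn2b did not pass. Cdkn2c, which encodes p18, had signals of 1947, 1950 and 2097 on wild-type arrays and 2541, 2562 and 2424 on KO arrays. Every KO array was above every wild-type array. The means were 1998 ± 85.7 and 2509 ± 74.8 (SD, n = 3 arrays each), and the log2 fold change was 0.33 (SE 0.08, 95% interval 0.15 to 0.50, adjusted p = 0.0359 by limma). It did not pass with median centring, where it was 0.23 (adjusted p = 0.523), nor without wild-type replicate 1, 2 or 3 (0.138, 0.165 and 0.0875) or KO replicate 2 (0.0965), nor without limma's trend (0.148). RefSeq gives 2 starts of Cdkn2c, on the minus strand, and the window before the outer one is shown because it held 3 GC boxes, at positions -95, -51 and -40, the most in any of the 10 promoters. Capitals mark the GC boxes.
Cdkn2c, outer start, chr4:109666757-109667006: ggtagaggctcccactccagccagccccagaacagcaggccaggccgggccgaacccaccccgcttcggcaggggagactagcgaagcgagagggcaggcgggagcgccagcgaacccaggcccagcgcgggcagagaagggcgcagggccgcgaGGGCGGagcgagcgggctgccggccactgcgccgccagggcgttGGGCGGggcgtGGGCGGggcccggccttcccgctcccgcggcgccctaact

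Cdkn2b encodes p15, which is known to be induced by TGF-β. Its signals were 647, 710 and 523 on wild-type arrays and 603, 486 and 574 on KO arrays. Wild-type replicate 3 lay among the KO arrays, and the log2 fold change was -0.17 (95% interval -0.49 to 0.15, adjusted p = 0.529 by limma).

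**Figure D3:**
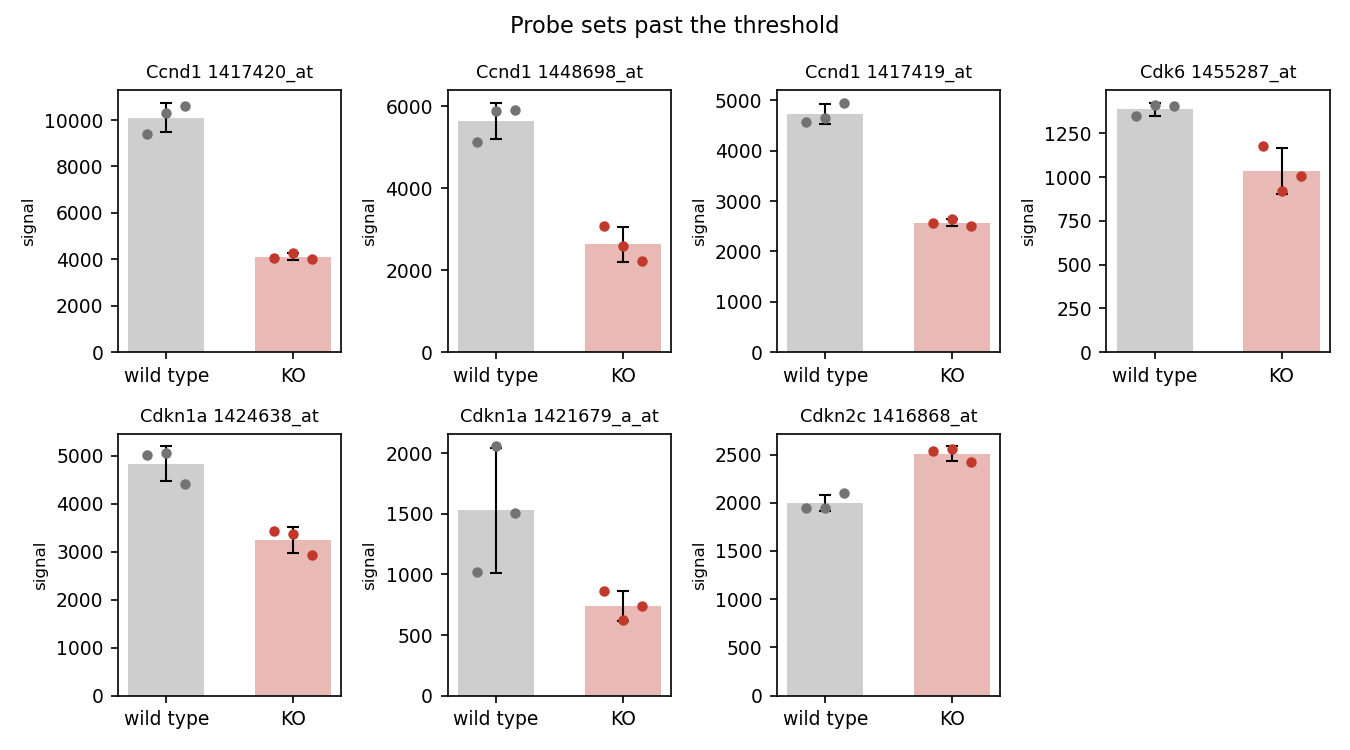
Signals (y axis, linear, from 0) of the 7 probe sets past the threshold in wild-type and Slc39a13-KO arrays (x axis), 1 panel each with its own scale. Bars are means, error bars the SD of 3 arrays and points the arrays, and in each panel all KO points lie on 1 side of all wild-type points, with the narrowest gap for Cdkn1a 1421679_a_at between 868 and 1020.

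The genes that act beside or after the D cyclins at the G1/S boundary changed in both directions. Of 28 tested genes for cyclin E, Cdk2, the Cdk-activating kinase, the retinoblastoma family, E2F factors and ubiquitin ligases of G1, 3 were lower and 2 were higher, beside 3.92% and 3.97% of all genes, and 23 did not pass, with a median log2 fold change of 0.02 beside 0.01 over all genes. E2f6, an E2F factor that represses, had a log2 fold change of -0.51 (adjusted p = 0.0116 by limma). Cdk7 and Ccnh, the kinase and cyclin of the Cdk-activating kinase, had -0.46 and 0.36 on their brightest probe sets (adjusted p = 0.0136 and 0.0408), and Ccnh was named after its value was seen. The 4 other probe sets of Cdk7 lay at -0.24 to 0.13, 1 of them above 0, and none passed, as did not the other one of E2f6 (-0.16). Cdc25a, a phosphatase that activates Cdk2, had -0.42 (adjusted p = 0.0403), with 0.11 on its other probe set. Cdkn2d, the INK4 inhibitor p19, had 0.40 (adjusted p = 0.0208). Without wild-type replicate 1, 2 or 3, the list had 1, 0 and 0 lower genes and 0 higher ones. E2f6 then had an adjusted p of 0.0541 to 0.0673, Cdk7 did not pass without replicate 2 or 3 (0.0867 and 0.0653), and Cdc25a (0.123 to 0.145) and Cdkn2d (0.0733 to 0.111) did not pass without any 1 of them. Without KO replicate 2, no gene of the list was higher (Cdkn2d 0.0515), and without KO replicate 1 or 3 Cdc25a did not pass (0.0649 and 0.0636). Cdk2, Ccne1 and Rb1, named after their values were seen as textbook members of this step, had 0.16, 0.14 and -0.20 and did not pass (adjusted p = 0.331, 0.463 and 0.333).

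The genes of S phase and of G2 and M phase that passed were mostly higher in KO chondrocytes. Of 22 tested S phase genes, 5 were higher and 0 lower by limma, beside 3.97% and 3.92% of all genes, around a median of 0.16. At an unadjusted p under 0.05, 8 were higher and 0 lower, by limma and by the test of the methods alike. In either direction, the test of the methods gave 4369 of all 23294 probe sets at that level, and limma fewer than 5471. After adjustment the test of the methods gave 0 and 0 for the S phase genes. Of 21 G2 and M phase genes 4 were higher and 1 lower by limma, beside the same 3.97% and 3.92%, around a median of 0.17. Pola1 and Prim1, subunits of DNA polymerase α-primase, showed increases of 0.55 and 0.53 on the log2 scale (adjusted p = 0.0114 and 0.00581 by limma), with 0.12 on the other probe set of Prim1, which did not pass. Mki67, the proliferation marker Ki-67, had 0.61 (adjusted p = 0.00359). Cdc20, an activator of the anaphase-promoting complex, was the lower one, with -0.37 (adjusted p = 0.0470), and its 2 other probe sets did not pass (-0.67 and -0.08). Without wild-type replicate 3 and KO replicate 2 together, and with median centring, no gene of these 2 lists passed. Without wild-type replicate 1, 2 or 3, 3, 2 and 3 of the S phase genes and 1, 1 and 1 of the G2 and M phase genes passed, all higher, and without KO replicate 2 the latter list had 2. Pola1 did not pass without wild-type replicate 1 (adjusted p = 0.0563) or 2 (0.0667). Cdc20 passed only without KO replicate 3 among the fits with 1 array left out (0.0404, against 0.0529 to 0.190 in the others).

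Of the other known targets of p53, 9 of 19 tested were lower and 0 higher by limma, beside 3.92% and 3.97% of all genes. The other 10 did not pass, and the median was -0.37 on the log2 scale. At an unadjusted p under 0.05, limma gave 11 lower and 2 higher. The test of the methods gave 10 and 0, and 1 and 0 after adjustment. Unadjusted, limma took in fewer than 5471 of all 23294 probe sets, and the test of the methods 4369. The summed signal of the list was 40020 to 40770 on wild-type and 26430 to 28900 on KO arrays. Pmaip1, the pro-apoptotic BH3-only protein Noxa, had a log2 fold change of -3.01 (SE 0.29, adjusted p = 0.000990 by limma). Perp, a tetraspan protein that also serves desmosomes in epithelia, had -2.14 (SE 0.10, adjusted p = 4.96e-05). Trp53inp1, a p53-induced nuclear protein, and Phlda3, an inhibitor of Akt, had -0.98 and -0.67 (adjusted p = 0.000990 and 0.00647). The dimmer probe set of Trp53inp1 had -0.24 and did not pass. On their brightest probe sets, these 4 genes passed with each array left out in turn. The mean of Pmaip1 on KO arrays was under the level of the filter on dim values, so the size of its change depends on the added constant. Mdm2, the ubiquitin ligase that p53 induces against itself, and Btg2, an antiproliferative p53 target, were named after their values were seen and did not pass, with -0.25 and -0.47 (adjusted p = 0.116 and 0.0784), while Gadd45a, a stress-induced gene also named after its value was seen, had 0.33 (adjusted p = 0.205). None of the 20 promoters found for 15 genes of this list held the response element in the 250 bases searched. The count of lower genes was 6, 6 and 7 without wild-type replicate 1, 2 or 3, and 4 without wild-type replicate 3 and KO replicate 2 together. Without KO replicate 1 it was 10, and 1 gene was higher.

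Of 19 tested immediate early and mitogen-induced genes, 7 were lower and 0 higher by limma, beside 3.92% and 3.97% of all genes. The AP-1 members of this group include known activators of Ccnd1. The median log2 fold change was -0.21. At an unadjusted p under 0.05, limma gave 8 lower and 3 higher. The test of the methods gave 8 and 0, and 0 and 0 after adjustment. Unadjusted, limma took in fewer than 5471 of all 23294 probe sets, and the test of the methods 4369. Klf4, a zinc finger factor known to raise Cdkn1a and lower Ccnd1, had a log2 fold change of -1.03 on its brighter probe set (adjusted p = 0.00152 by limma), and Dusp6, a phosphatase that is both target and brake of ERK, had -1.02 (adjusted p = 0.00173). The AP-1 subunit genes Fosl1 and Fosl2 had -0.75 and -0.55 (adjusted p = 0.0417 and 0.0292), and the other probe set of each did not pass (-0.82 and -0.38). Fosl1 and Fosl2 did not pass without any 1 of the wild-type arrays (adjusted p = 0.0663 to 0.164 and 0.0589 to 0.120) or without KO replicate 2 (0.0623 and 0.0629), and Fosl1 also not without KO replicate 1 (0.0588). Fos and Myc, named after their values were seen, did not pass, with 1.01 and -0.13 (adjusted p = 0.107 and 0.412). The list had 3, 2 and 4 lower genes without wild-type replicate 1, 2 or 3, and 2 with median centring. Without KO replicate 3 it had 7 lower and 2 higher genes.

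**Figure D4:**
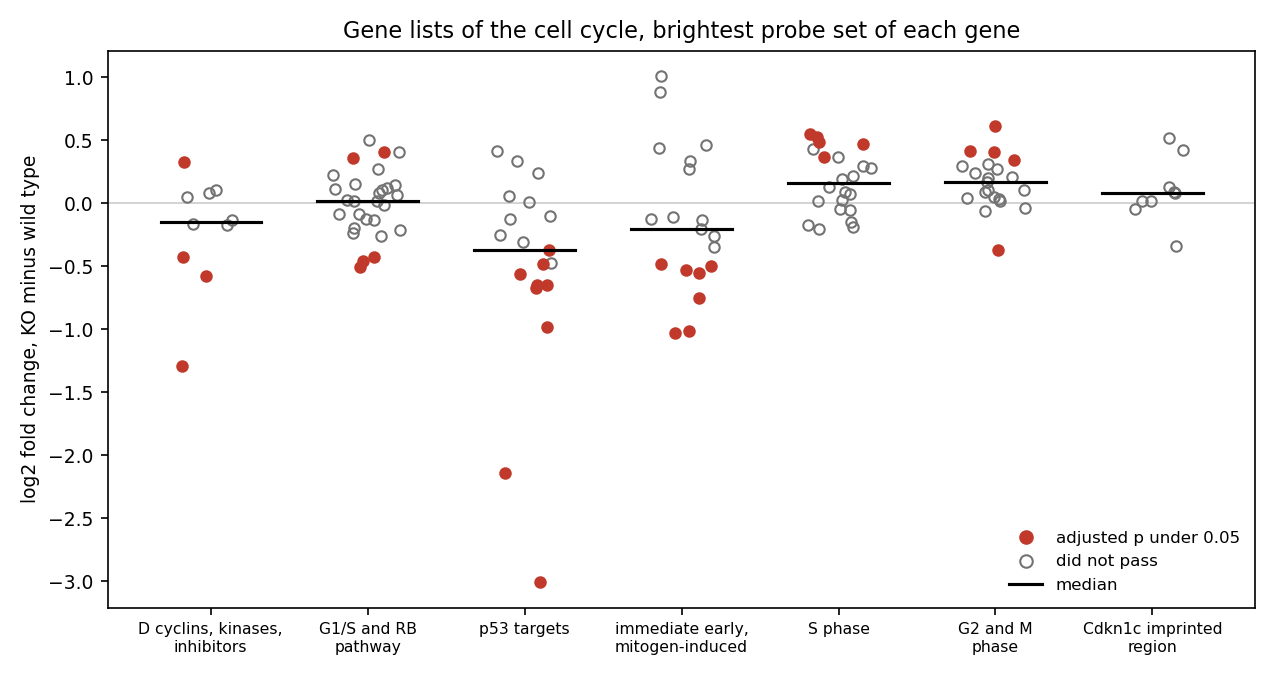
Log2 fold change, KO minus wild type (y axis), of the brightest probe set of each tested gene in 7 lists (x axis, with points spread sideways at random within a list). Filled red points have an adjusted p under 0.05, open points do not, and black lines are medians, which lie at -0.15 for the D cyclins, kinases and inhibitors, at -0.37 for p53 targets, at -0.21 for immediate early genes, and at 0.16 and 0.17 for S phase and for G2 and M phase.

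Markers of other cell types in the cultures gave the following counts by limma, beside 3.97% of all genes higher and 3.92% lower. Of 10 tested fibroblast markers, 5 were higher and 2 were lower, with a summed signal of 57710 to 69470 on wild-type and 78990 to 100600 on KO arrays. Of 14 chondrocyte markers, 5 were higher and 1 was lower (123200 to 148700 and 172300 to 238300), and of 7 hypertrophic markers 4 were higher and 1, Col10a1, was lower (11920 to 17250 and 15250 to 20090). One of 5 muscle markers, Acta1, was lower (1394 to 1635 and 869 to 967), with the defining gene Myog under the filter at 7.69 to 71.4 and Des at 24.1 to 179. Of 7 macrophage and 2 endothelial markers none passed by limma. At an unadjusted p under 0.05, which fewer than 5471 of all 23294 probe sets had, 2 and 0 of them were higher and none lower. Their summed signals were 573 to 839 and 228 to 294 on wild-type arrays and 718 to 1239 and 195 to 365 on KO arrays, and C1qa, Cdh5 and Pecam1 were under the filter on dim values, with C1qa at 3.30 to 7.23. Without wild-type replicate 1, 2 or 3, 3 chondrocyte markers and 1, 2 and 2 fibroblast markers were higher. No marker of the chondrocyte, fibroblast or muscle lists was then lower. The hypertrophic marker Col10a1 still passed as lower (adjusted p = 0.0398, 0.0412 and 0.00518 by limma). The part of these cells in the values of the D cyclins, kinases and inhibitors was not tested.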

How the data were processed

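Total RNA of cultured rib chondrocytes from wild-type and Slc39a13-KO mice, 3 arrays each, was labeled by a one-cycle method and hybridized to Affymetrix Mouse Genome arrays. The deposited values are intensities on a linear scale, which the authors made with MAS5 per the submitters' notes (version not stated), while the methods name gcRMA. Trimmed by 2% at each end, every array had a mean of 500.003, while quantiles differed between arrays, as MAS5 scaling leaves them. The number of arrays limits the precision.

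Of 45101 deposited probe sets, 34945 had 1 gene symbol, 932 had several and 9160 had none, beside 64 controls, and the latter 3 kinds were left out. By Entrez identifier, 34741 matched a mouse gene table, which changed 0 symbols. Signals were transformed to log2(signal + 7.96), the added constant being the 10th percentile over the table. A filter on dim probe sets at the 40th percentile of mean log2 values (5.80) kept 23294 of 12715 genes. KO was compared with wild type by limma 3.58.1 in R 4.3.3 (lmFit, eBayes with a trend, two-sided, no covariates), with Benjamini-Hochberg adjustment over all probe sets and a threshold of 0.05, and the procedure was tested on simulated data. The probe set with the highest mean stood for a gene in counts by gene.

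The 10 genes, the gene lists and the alternatives were chosen with earlier results of these data known, so counts over lists are descriptions. All 10 genes are named with each probe set, and from each other cell cycle list at most 4 called genes by size of change, or, with no call, at most 2 by p-value. Marker lists are given by counts, sums and defining genes. Genes named outside this are marked as such. The replicate numbers of the labels did not pair the arrays. Promoters are from RefSeq (GRCm38.p6).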

Additional observations from a re-analysis of the deposited data

How the results depend on the processing

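Limits. With 3 arrays a group, calls with log2 fold changes as large as -0.99 among the 10 genes (Cdkn1a 1421679_a_at), and larger ones elsewhere, were lost on leaving out single arrays, and dim probe sets near the filter have intervals over 1 wide on the log2 scale. The alternatives were other filters, pseudocounts and scalings, other handling of probe sets, other tests and arrays left out. All 3 Ccnd1 probe sets and both of Cdkn1a were lower in every setting that included them, and 1417420_at of Ccnd1 passed in all of them. Log2 fold changes turned sign for Cdk4 1422439_a_at with median centring (-0.0706), without KO replicate 2 (-0.0348) and without wild-type replicate 3 and KO replicate 2 together (-0.0386). They did so for Cdkn1b 1434045_at with median centring (-0.0174) and the mean of its probe sets (-0.190), and for Cdkn1c with median centring (-0.0425), and on leaving out wild-type replicate 1 (-0.0398) or KO replicate 1 (-0.0833). With 1 array left out, the range was -0.0348 to 0.0971 for Cdk4 1422439_a_at and -0.0833 to 0.139 for Cdkn1c.

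Of the 10 genes, 4 passed, against 2 with median centring, 1 without limma's trend, 1 with the methods' two-tailed Student's test after Benjamini-Hochberg adjustment, 2 with the replicate block, 1 by the 2-fold criterion, 1 without wild-type replicate 3 and KO replicate 2 together, and 1 to 4 with 1 array left out. Of their 24 probe sets, 7 passed, against 4 of 10 in the fit on the brightest probe set, 4 of 10 with the mean of probe sets, 2 without the trend, 2 with the Student's test adjusted, 4 with the replicate block, 2 by the 2-fold criterion, 3 without the pair of arrays, and 3 to 9 with 1 array left out.

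Of the 118 genes of the other cell cycle lists, 31 passed, against 8 with median centring, 4 without the trend, 3 with the Student's test adjusted, 20 with the replicate block, 5 by the 2-fold criterion, 6 without the pair of arrays, and 11 to 38 with 1 array left out. Over all probe sets, 1587 passed, against 390 with median centring, 879 genes with the mean of probe sets, 108 without the trend, 4369 with the Student's test at its unadjusted threshold and 84 after adjustment, 837 with the replicate block, 806 by the 2-fold criterion, 186 without the pair of arrays, and 436 to 2283 with 1 array left out. For Slc39a13 the log2 fold change of -2.67 had an adjusted p = 0.0727 with the Student's test, and was -2.40 to -2.86 with 1 array left out. The causes of these differences were not tested. The replicate numbers were not taken as pairs, because the same-numbered arrays' deviations from their group means correlated at 0.033, 0.0148 and -0.0544.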
